A study of Mus musculus with 36 samples.

Results

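The genes described here are 9 genes of pacemaking and of the sinoatrial node, the pacemaker of the heart: the channel genes Hcn2, Hcn4, Cacna1d and Cacna1g, the transcription factor genes Shox2, Isl1, Tbx3 and Tbx18, and Vsnl1, which encodes a neuronal calcium sensor protein. They were chosen by symbol among the 55291 gene symbols of the deposited tables and followed in all 36 RNA-Seq libraries. All mice were CUG960 animals, bitransgenic for TREDT960I (homozygous), from which a human DMPK transcript with interrupted CUG repeats (CUGexp RNA) is made under a tetracycline response element, and for MHCrtTA (hemizygous), whose α-MHC (Myh6) promoter puts the transactivator in cardiomyocytes. The +dox mice received doxycycline (dox) from postnatal day 1, the –dox mice never did, and the +/–dox mice were taken off it at 9 weeks of age. The MBNL1, MBNL2 and MBNL1+MBNL2 mice stayed on dox and were injected at 9 weeks with AAV9 vectors that express tagged human MBNL1, tagged human MBNL2 or both from the human TNNT2 promoter, which is active in cardiomyocytes. Tissue was taken at 21 weeks of age from the atria and from the left ventricle, with 3 libraries in each of the 12 groups of a chamber and cohort. The AAV cohorts were compared with +dox mice that had received no vector, so injection and the MBNL cDNA cannot be told apart. The series holds no mice given dox without the repeat transgene, so dox itself and the CUGexp RNA cannot be told apart either.

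Pacemaker cells depolarize between beats through the hyperpolarization-activated current carried by HCN channels, with L-type (Cav1.3, Cacna1d) and T-type (Cav3.1, Cacna1g) calcium channels bringing the membrane to threshold. Shox2, Isl1, Tbx3 and Tbx18 act in the formation of the node, where Tbx3 and Shox2 hold back the programme of working atrial muscle. The node is a small structure at the junction of the superior caval vein and the right atrium, so how much of it a dissected atrial sample holds differs from animal to animal. HCN4 is also found in the conduction system, Tbx18 also in epicardium and in mural cells of vessels, and Tbx3 also in the conduction system below the node, so none of these genes stands for the node alone.

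The estimated total counts were 57.78 to 97.09 M per ventricular library and 55.03 to 85.78 M per atrial library. The defining markers followed the chambers: Myl7 was at 9011 to 14030 TPM (a level scaled by gene length and library size) in atria and 8.33 to 231.1 TPM in ventricle, and Myl2 at 28.72 to 581.2 TPM in atria and 14190 to 20120 TPM in ventricle. Lung markers summed to at most 0.27 TPM except in ventricular –dox replicate 3, at 3.22 TPM. Ventricular MBNL1 replicate 1 listed fewer genes than the other libraries, and leaving it out kept the number of called results of the 9 genes at 11 in atria, 7 in ventricle and 0 for the differences between the chambers, while that for atria against ventricle went from 10 to 11. Library names fall into 2 series, one holding replicates 1 and 2 of 5 cohorts and the other all replicates 3 and the whole MBNL1+MBNL2 cohort. The study lists 1 female among the 3 mice of each of the 5 cohorts and none in the MBNL1+MBNL2 cohort, and Xist, an RNA of female cells, was at 13.57 to 41.24 TPM in the 10 replicates 3 of the 5 cohorts and at most 0.15 TPM in the other libraries, so sex and name series cannot be told apart in the 5 cohorts. The study lists the same mice for both chambers, but the labels do not say which libraries share a mouse. By Xist, the replicates 3 of the 2 chambers come from the 1 female of each of the 5 cohorts. For the other libraries the pairing is not known. Atria and ventricle were therefore fitted as separate libraries, and p-values measure the spread between libraries. With cohort and replicate number as a block across the chambers the calls numbered 10 between the chambers and 0 for the interactions, as without it. In bulk tissue, fewer cells of a type and less RNA per cell cannot be told apart.

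The windows before 4 transcription starts are printed here to show what lies upstream of the genes whose levels separated the cohorts or the chambers. They are RefSeq promoters on GRCm38.p6, written 5′ to 3′ on the gene's strand. All but that of Vsnl1 end at the base before the start. The 35 bases nearest the Vsnl1 start lie in an annotated exon and are not printed. Capitals mark the matches to 4 motifs searched on both strands, which do not overlap each other here: TATAAA, the T-box motif AGGTGT, the GATA motif AGATAA and the MEF2 core. The Hcn4 window is chr9:58822699-58822948 (plus strand), the Shox2 window chr3:66981772-66982021 (minus strand), the Vsnl1 window chr12:11436614-11436828 (minus strand), and the Cacna1d window, before a start inside the gene, chr14:30353487-30353736 (minus strand).
Hcn4: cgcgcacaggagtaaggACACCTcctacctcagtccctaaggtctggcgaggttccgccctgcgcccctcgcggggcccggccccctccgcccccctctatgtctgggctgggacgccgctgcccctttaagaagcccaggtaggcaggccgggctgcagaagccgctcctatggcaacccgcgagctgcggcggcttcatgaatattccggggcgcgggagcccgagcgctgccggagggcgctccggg
Shox2: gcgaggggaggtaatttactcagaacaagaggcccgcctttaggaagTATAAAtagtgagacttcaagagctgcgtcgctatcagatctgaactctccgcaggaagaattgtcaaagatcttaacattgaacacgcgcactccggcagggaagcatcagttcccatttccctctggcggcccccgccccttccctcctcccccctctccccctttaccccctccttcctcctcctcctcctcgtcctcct
Vsnl1: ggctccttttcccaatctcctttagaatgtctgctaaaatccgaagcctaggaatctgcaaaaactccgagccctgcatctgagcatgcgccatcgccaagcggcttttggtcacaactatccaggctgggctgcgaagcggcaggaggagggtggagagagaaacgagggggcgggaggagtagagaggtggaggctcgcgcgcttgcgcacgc
Cacna1d: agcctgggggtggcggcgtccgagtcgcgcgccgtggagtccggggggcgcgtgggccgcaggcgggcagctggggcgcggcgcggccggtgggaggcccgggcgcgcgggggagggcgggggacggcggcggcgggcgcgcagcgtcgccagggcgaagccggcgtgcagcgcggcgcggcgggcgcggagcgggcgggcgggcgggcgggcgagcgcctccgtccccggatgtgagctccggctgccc
The Hcn4 window holds the reverse complement of the T-box motif, which is present in 11.8% of the 32851 RefSeq mouse promoters of the same length, and the Shox2 window holds TATAAA, present in 12.4%. No match to the 4 motifs was found in the Vsnl1 and Cacna1d windows. A match is a description of letters and not a binding site. The share of G and C was 71.2% for Hcn4, 55.6% for Shox2, 86.4% for Cacna1d and 58.6% for the 215 printed bases of Vsnl1. It was 58% for all 250 bases of that Vsnl1 window, and the median over all promoters was 52.4%. A second RefSeq start of Vsnl1 has a window with 41.6% and no match, and the most upstream Cacna1d start, whose window lies in an annotated exon and is not printed, one with 39.6% and 3 matches to TATAAA, of which 2 overlap. Tbx3 and Cacna1g had no entry.

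On GRCm38, Hcn2 (ENSMUSG00000020331.9) spans chr10:79716634-79736108, Hcn4 (ENSMUSG00000032338.9) chr9:58823412-58863175, Cacna1d (ENSMUSG00000015968.17) chr14:30039939-30491455 and Cacna1g (ENSMUSG00000020866.17) chr11:94408391-94474198. Shox2 (ENSMUSG00000027833.16) spans chr3:66971727-66981771, Isl1 (ENSMUSG00000042258.13) chr13:116298281-116309689, Tbx3 (ENSMUSG00000018604.18) chr5:119670669-119684724, Tbx18 (ENSMUSG00000032419.8) chr9:87702800-87731260 and Vsnl1 (ENSMUSG00000054459.8) chr12:11325242-11436613. The ends of 4 of the genes overlap a gene on the opposite strand: Shox2 overlaps Rsrc1 over 382 bases, Tbx3 overlaps Tbx3os1 over 697, Tbx18 overlaps D030062O11Rik over 1976, and Cacna1d overlaps Chdh over 589 and Dcp1a over 11921. Cacna1d also holds 5 processed pseudogenes with at most 2 counts per library. The libraries were stranded but the strand setting of the counting is not given in the sources used here, so values of these genes carry that uncertainty. Rsrc1 had 637 to 1959 counts per library and Dcp1a 1028 to 2466, against 193 to 714 counts of Cacna1d in the ventricular libraries.

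The channels and node factors were expressed at low to moderate levels, and their order differed between the chambers. In atria the median over 18 libraries was 11.51 TPM for Vsnl1, 9.285 for Cacna1g, 8.43 for Cacna1d, 7.495 for Hcn2 and 3.87 for Hcn4. The transcription factor genes were lower, with atrial medians of 3.09 TPM for Tbx18, 2.49 for Shox2, 1.94 for Tbx3 and 0.06 for Isl1. In ventricle the medians were 12.8 TPM for Hcn2, 11.84 for Cacna1g, 3.85 for Hcn4, 3.565 for Tbx3, 2.54 for Tbx18, 0.895 for Cacna1d, 0.22 for Shox2, 0.105 for Vsnl1 and 0 for Isl1. Vsnl1, the highest of the 9 in atria, was thus among the lowest in ventricle, while Hcn2 and Cacna1g led there.

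Isl1, which encodes a LIM homeodomain factor of the node and of cardiac progenitors, was measured at the limit of the libraries. It had 0 to 15 counts per atrial library and 0 to 13 per ventricular library, with 0 counts in 2 of 18 atrial and 11 of 18 ventricular libraries. A library with 0 counts allows up to 3 counts, or 0.0322 to 0.0513 CPM (counts scaled to the library size) in atria and 0.0339 to 0.0568 CPM in ventricle, for counting error only. Changes of Isl1 between cohorts were not detectable at this depth, and its other values rest on these few counts.

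**Figure D1:**
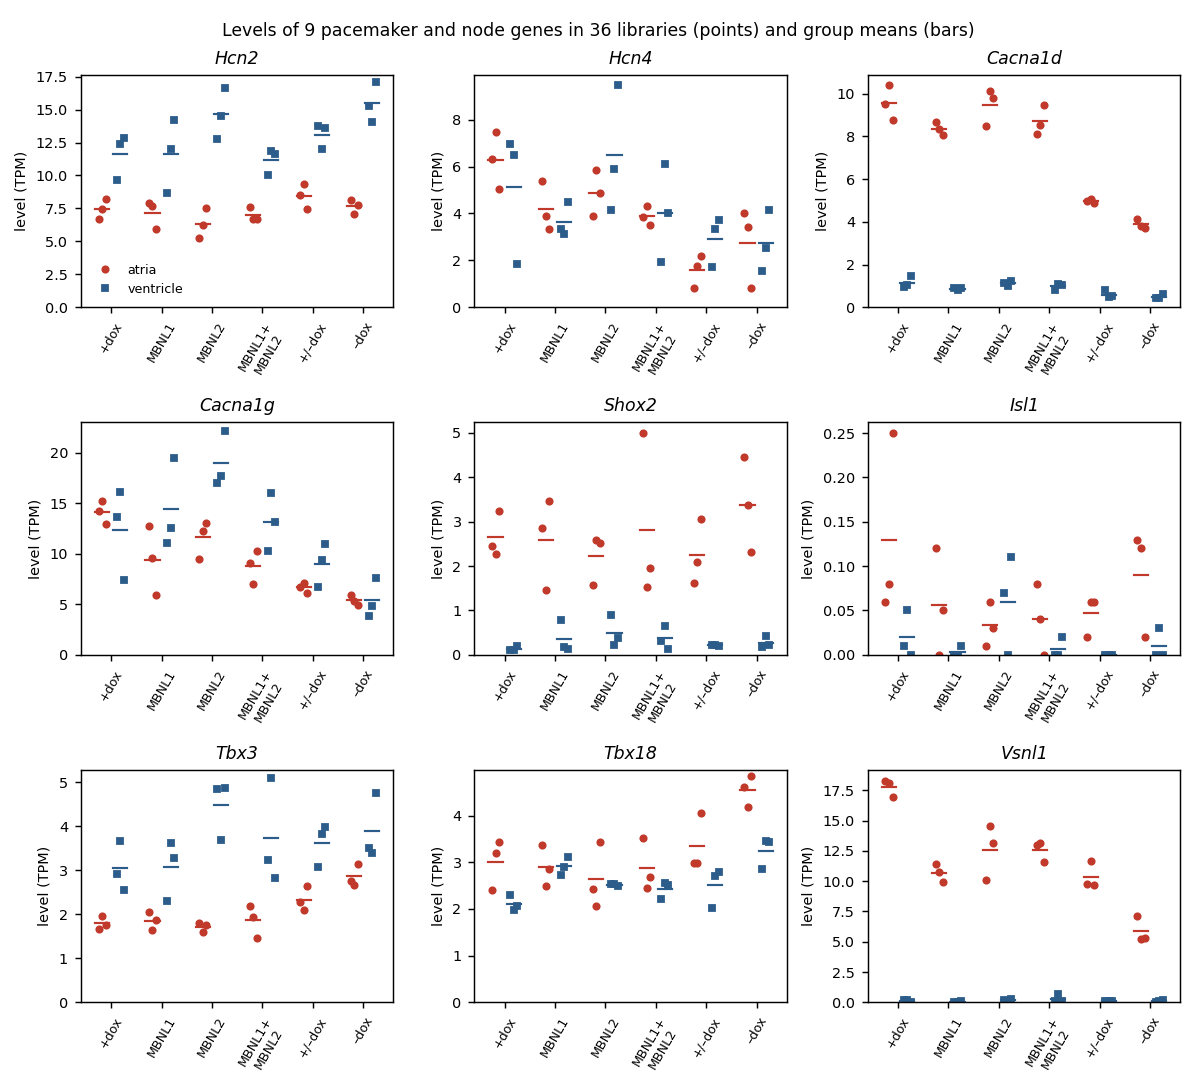
Level in TPM (y axis) of each of the 9 genes in the 36 libraries (points) by cohort (x axis), for atria and ventricle, with bars at the means of 3 libraries. Vsnl1 and Cacna1d lie far higher in atria than in ventricle, and the +dox atrial libraries are the highest of their chamber for Vsnl1, at 16.96 to 18.29 TPM.

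The first question was how the 9 genes differ between +dox mice, which make CUGexp RNA, and –dox mice, which never received dox. In atria of –dox mice, Cacna1d, Cacna1g and Vsnl1 were lower than in +dox mice by 2.37- to 2.94-fold, and Tbx3 and Tbx18 were higher by 1.62- and 1.55-fold. A call here means a Benjamini-Hochberg adjusted p below 0.05 in edgeR's quasi-likelihood test, adjusted over all 19231 genes tested, with a change of at least 1.5-fold. By that rule 5 of the 9 genes were called in atria, 2 higher and 3 lower in –dox mice, where 5.23% of all genes tested were called. In ventricle 3 of 9 were called, Tbx18 higher and Cacna1d and Cacna1g lower in –dox mice, against 7.6% of all genes tested. All 9 passed the filter on low counts, and the median log2 fold change over the 9 was 0.08 in atria and -0.93 in ventricle, against 0.03 and 0.01 over all genes.

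Cacna1d, which encodes the L-type channel Cav1.3 of pacemaker cells and atrial muscle, had the lowest adjusted p of the 9 in both chambers. In atria it was at 9.51, 10.4 and 8.79 TPM in the 3 +dox libraries and at 4.11, 3.8 and 3.72 TPM in the –dox libraries. Every –dox library lay below every +dox library, and the log2 fold change was -1.24 (SE 0.133, edgeR adjusted p = 6.19e-08). In ventricle, where the gene was about an order of magnitude lower, the +dox libraries were at 0.95, 1.06 and 1.45 TPM and the –dox libraries at 0.44, 0.42 and 0.6 TPM, again without overlap. The ventricular log2 fold change was -1.22 (SE 0.144, edgeR adjusted p = 2.81e-07), close to the atrial one.

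Cacna1g encodes Cav3.1, the main T-type calcium channel of the adult node and conduction system. In atria it was at 14.25, 15.22 and 12.95 TPM in +dox and at 5.89, 5.35 and 4.89 TPM in –dox mice. The groups did not overlap, with a log2 fold change of -1.36 (SE 0.292, edgeR adjusted p = 0.00187). In ventricle the +dox libraries were at 13.62, 16.09 and 7.39 TPM and the –dox libraries at 3.84, 4.86 and 7.64 TPM. Here +dox replicate 3 lay among the –dox libraries, and the log2 fold change of -1.19 (SE 0.29, edgeR adjusted p = 0.00444) became -1.48 without that library. In a fit of these 6 libraries alone the ventricular call was lost, with an adjusted p of 0.139.

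Vsnl1, the calcium sensor gene, fell in atria of –dox mice by the largest fold of the 9 genes. It was at 18.29, 18.09 and 16.96 TPM in +dox and at 7.11, 5.25 and 5.32 TPM in –dox libraries, a log2 fold change of -1.56 (SE 0.351, edgeR adjusted p = 0.00263) with no overlap. In ventricle Vsnl1 had 0 to 47 counts per library and was not called in any cohort.

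Tbx3, a repressor of the atrial muscle programme in the node and conduction system, moved the other way in atria. Its level was 1.67, 1.95 and 1.76 TPM in +dox and 2.76, 2.67 and 3.15 TPM in –dox mice, so that every –dox library was higher (log2 fold change 0.70, SE 0.174, edgeR adjusted p = 0.00535). In ventricle Tbx3 was at 2.91, 3.65 and 2.55 TPM in +dox and 3.51, 3.38 and 4.74 TPM in –dox mice, and the libraries overlapped (log2 fold change 0.35, adjusted p = 0.149).

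Tbx18, a factor of the node's precursors, of epicardium and of mural cells, was higher in –dox mice in both chambers. In atria it was at 2.4, 3.19 and 3.44 TPM in +dox and 4.61, 4.19 and 4.84 TPM in –dox libraries (log2 fold change 0.64, SE 0.142, edgeR adjusted p = 0.00195). In ventricle it was at 2.29, 1.97 and 2.07 TPM in +dox and 2.85, 3.45 and 3.44 TPM in –dox libraries (log2 fold change 0.65, SE 0.143, edgeR adjusted p = 0.00119). Neither chamber showed overlap, but both changes were just over the 1.5-fold limit: without atrial +dox replicate 1 the log2 fold change was 0.53, and without ventricular –dox replicate 2 it was 0.57, both under the limit.

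Markers of cell types that also express Tbx18 were, like it, higher in –dox than in +dox atria by their sums. The summed level of 6 epicardial markers (Wt1, Upk3b, Upk1b, Msln, Krt19 and Bnc1) was 16.48 to 57.84 TPM in the +dox atria and 61.85 to 107.1 TPM in the –dox atria, although 0 of 6 were called singly. The sum of 7 mural cell markers (Rgs5, Pdgfrb, Kcnj8, Abcc9, Notch3, Cspg4 and Vtn) was 92.54 to 95.96 TPM in +dox and 116.5 to 141.4 TPM in –dox atria, with Vtn called. Fibroblast markers (Col1a1, Pdgfra, Dcn and Tcf21) summed to 928.7 to 1144 TPM and 1256 to 1298 TPM, with 0 of 4 called. In ventricle the mural sum was 190.9 to 241.7 TPM in +dox and 272.1 to 290.4 TPM in –dox mice, while the epicardial sums (1.4 to 3.68 and 2.78 to 2.97 TPM) and fibroblast sums (557.7 to 598.6 and 485.5 to 600.3 TPM) overlapped. In +/–dox atria the mural sum, at 111.2 to 142.6 TPM, was above every +dox library, while Tbx18, at 2.99 to 4.05 TPM, overlapped with +dox. The epicardial sum (28.06 to 68.51 TPM) and the fibroblast sum (1093 to 1263 TPM) overlapped there too. In each AAV cohort the atrial mural sum was also above every +dox library, at 97.11 to 114.6 TPM, and Tbx18 overlapped. The part of these cells in the Tbx18 values was not tested.

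**Figure D2:**
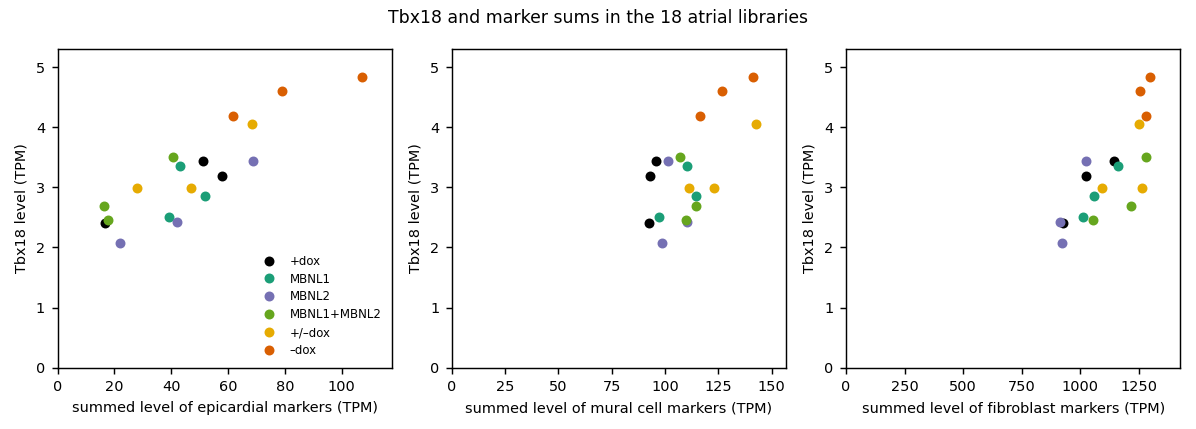
Tbx18 level in TPM (y axis) against the summed TPM of epicardial, mural cell and fibroblast markers (x axes) in the 18 atrial libraries, coloured by cohort. The 3 –dox libraries, at 4.19 to 4.84 TPM of Tbx18, also lie above the +dox libraries on all 3 marker sums.

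Hcn4, the main HCN channel of the node, was lower in –dox atria in every library but varied too much for a call. It was at 6.34, 7.47 and 5.03 TPM in +dox and at 4.04, 3.41 and 0.83 TPM in –dox mice (log2 fold change -1.13, SE 0.526, edgeR adjusted p = 0.154). Without –dox replicate 3, which had the lowest value, the log2 fold change was -0.68 with an adjusted p of 0.468. That library had the highest atrial sum of ventricular cardiomyocyte markers (Myl2, Myl3, Irx4 and Hey2), 806.4 TPM against 45.32 and 43.2 TPM in the other –dox libraries. The next highest sum, 627.7 TPM in MBNL1 replicate 1, came with the highest Hcn4 of its cohort, 5.4 TPM. A link between the marker sum and Hcn4 was not tested. In ventricle Hcn4 was at 6.98, 6.51 and 1.86 TPM in +dox and 1.53, 2.54 and 4.15 TPM in –dox mice, which overlapped (log2 fold change -0.93, adjusted p = 0.228). As for Cacna1g, replicate 3 was the lowest of the ventricular +dox libraries.

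Hcn2, the HCN channel of working heart muscle as well as of the node, overlapped between the cohorts in atria and not in ventricle. In atria it was at 6.67, 7.43 and 8.25 TPM in +dox and 8.16, 7.07 and 7.76 TPM in –dox libraries, which overlapped (log2 fold change 0.08, SE 0.142). In ventricle it was at 9.62, 12.4 and 12.85 TPM in +dox and 15.28, 14.08 and 17.07 TPM in –dox libraries. There every –dox library was higher, and the log2 fold change of 0.45 (SE 0.14, edgeR adjusted p = 0.0217) passed the p threshold but not the 1.5-fold limit.

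Shox2, a homeodomain factor needed for the node's pacemaker programme, overlapped between the cohorts in atria, at 2.45, 2.27 and 3.24 TPM in +dox and 4.45, 3.38 and 2.31 TPM in –dox mice (log2 fold change 0.37, SE 0.422). In ventricle it was at 0.11, 0.1 and 0.19 TPM in +dox and 0.18, 0.42 and 0.22 TPM in –dox mice, a log2 fold change of 1.34 with an adjusted p of 0.0656.

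Withdrawal of dox at 9 weeks gave changes of the calcium channels in the same direction. In +/–dox atria 3 of the 9 genes were called against +dox mice, all lower, where 3.99% of all genes tested were called, and in ventricle 1 of 9, Cacna1d, against 6.6%. These comparisons share the +dox libraries with those above, and the values stand side by side for that reason. Atrial Cacna1d was at 4.99, 5.09 and 4.9 TPM in +/–dox mice, below every +dox library (log2 fold change -0.89, SE 0.132, edgeR adjusted p = 1.9e-05), and ventricular Cacna1d at 0.79, 0.48 and 0.51 TPM (log2 fold change -0.92, SE 0.142, edgeR adjusted p = 1.98e-05).

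Atrial Cacna1g was at 6.71, 7.13 and 6.16 TPM in +/–dox mice, without overlap with +dox (log2 fold change -1.03, SE 0.29, edgeR adjusted p = 0.0191). Atrial Hcn4 was at 0.8, 1.74 and 2.2 TPM, 3.82-fold below +dox and also without overlap (log2 fold change -1.93, SE 0.543, edgeR adjusted p = 0.019). Both calls turned on single libraries. The Hcn4 call was lost without +dox replicate 1 (adjusted p = 0.0591), +dox replicate 2 (0.0662) or +/–dox replicate 1 (0.103). The Cacna1g call was lost without +dox replicate 1 (adjusted p = 0.0732), +dox replicate 2 (0.0674), +/–dox replicate 1 (0.0641) or +/–dox replicate 3 (0.0926).

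Vsnl1 was lower in every +/–dox atrial library, at 9.76, 11.65 and 9.7 TPM, but was not called (log2 fold change -0.71, SE 0.343, edgeR adjusted p = 0.192). It was called in 6 of 19 alternative settings, among them the fit of the 18 atrial libraries (adjusted p = 0.00298) and that of the 6 libraries compared (0.0027). Tbx3 was higher in every +/–dox atrial library, at 2.27, 2.09 and 2.64 TPM, with an adjusted p of 0.115. Tbx18, at 2.99, 2.99 and 4.05 TPM, overlapped with +dox. In ventricle, Cacna1g at 6.68, 9.41 and 11.01 TPM and Hcn4 at 1.72, 3.33 and 3.7 TPM overlapped with +dox (log2 fold changes -0.48 and -0.85, adjusted p = 0.257 and 0.271).

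No member was called between –dox and +/–dox mice in either chamber, where 0.0104% of all genes tested were called in atria and 0.0312% in ventricle. At an unadjusted p under 0.05 there were 3 of 9 in atria (Tbx18 and, lower in –dox mice, Vsnl1 and Cacna1d) and 2 of 9 in ventricle (Tbx18 and Cacna1g). Of all 19231 genes tested, 907 in atria and 1586 in ventricle had such a p. DESeq2 called 0 of the 9 in both chambers. In atria the –dox libraries were all lower than the +/–dox libraries for Vsnl1 (log2 fold change -0.84) and Cacna1d (-0.35). They were all higher for Tbx18 (0.43) and Tbx3 (0.27), and the other members overlapped. How many of all genes tested separate in this way was not counted, so no remaining difference is read from it.

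Markers of parts and cell types of the atria also differed between these cohorts. Bmp10, which marks the right atrium in the adult, was at 516.7 to 599.2 TPM in +dox, 413.4 to 502.7 TPM in +/–dox and 443.2 to 523.6 TPM in –dox atria. Summed atrial cardiomyocyte markers (Myl7, Myl4, Nppa, Sln and Bmp10) were at 40260 to 43330 TPM in +dox, 55810 to 60710 in +/–dox and 54360 to 57760 TPM in –dox atria. Nppa made the largest part of this sum, at 17830 to 40240 TPM over the atrial libraries. Against +dox atria 0 of these 5 markers were called in –dox or +/–dox atria. Sums of intracardiac neuron markers were 3.64 to 4.17 TPM, 5.16 to 6.16 TPM and 4.58 to 8.01 TPM. Whether the share of the right atrium or of these cells in a sample has a part in the atrial results was not tested.

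**Figure D3:**
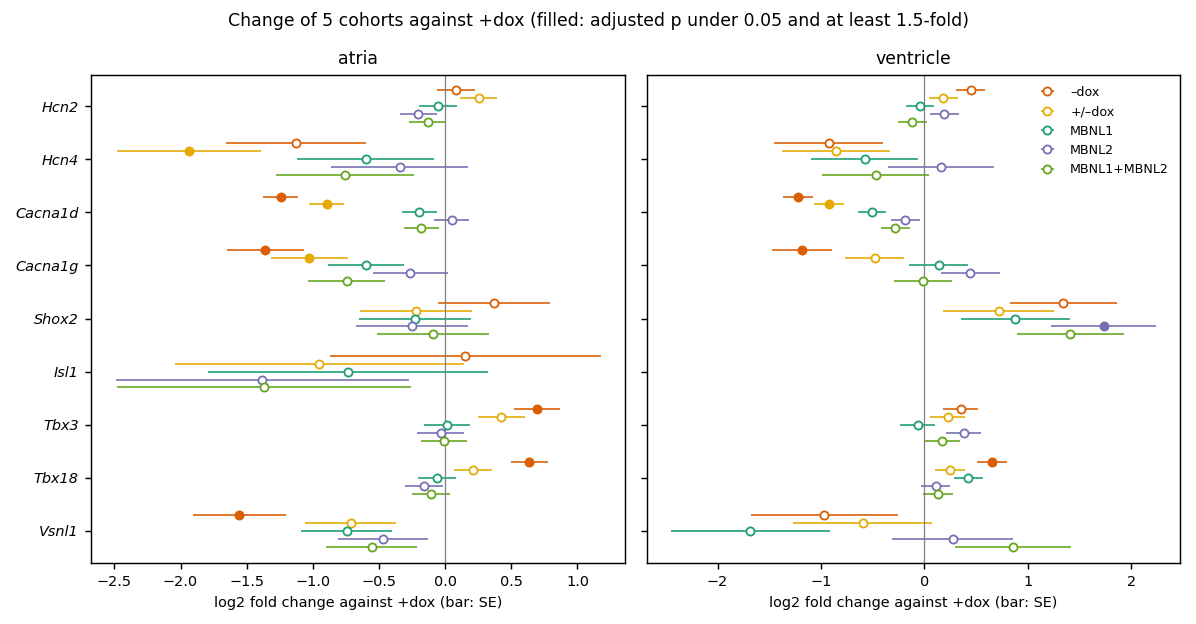
Log2 fold change against +dox mice (x axis, bars are SE) of the 9 genes in atria and ventricle for the other 5 cohorts, filled where the adjusted p was under 0.05 and the change at least 1.5-fold. Ventricular Isl1 is not drawn because most libraries had no counts. Cacna1d of the –dox and +/–dox cohorts is filled in both chambers, at -0.89 to -1.24.

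The second question was whether MBNL overexpression in +dox mice was accompanied by changes of the same genes. In atria none of the 9 was called against +dox in the MBNL1, MBNL2 or MBNL1+MBNL2 cohort, where 0.13%, 0.0052% and 0.26% of all genes tested were called. At an unadjusted p under 0.05 there were 2 (Vsnl1 and Cacna1g), 0 and 1 (Cacna1g) in the 3 cohorts, and DESeq2 called 0 in each. Of all 19231 genes tested, 1521, 831 and 1924 had such a p. Atrial Cacna1d stayed near the +dox values, at 8.66, 8.36 and 8.05 TPM with MBNL1, 8.5, 10.14 and 9.8 TPM with MBNL2 and 8.11, 8.52 and 9.48 TPM with both. Its libraries overlapped with +dox in each cohort, with log2 fold changes of -0.20, 0.05 and -0.18 (SE 0.13 to 0.131).

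For Vsnl1 all AAV libraries lay below all +dox libraries in atria. It was at 11.42, 10.79 and 9.93 TPM with MBNL1, 10.13, 14.57 and 13.12 TPM with MBNL2 and 12.95, 13.14 and 11.6 TPM with both, against 16.96 to 18.29 TPM in +dox. The log2 fold changes were -0.74, -0.47 and -0.56 (SE 0.341 to 0.343), with edgeR adjusted p of 0.588, 1 and 0.647, so no change of Vsnl1 passed the test in the fit of 36 libraries. With MBNL1 it was called in 5 of 19 alternative settings, among them the fit of the 18 atrial libraries (adjusted p = 0.0262) and that of the 6 libraries compared (0.0151). Atrial Cacna1g was at 12.73, 9.58 and 5.92 TPM with MBNL1, 9.46, 12.29 and 13.09 TPM with MBNL2 and 9.11, 7.01 and 10.3 TPM with both. Only the MBNL1+MBNL2 libraries did not overlap with +dox for Cacna1g (log2 fold change -0.75, SE 0.288, edgeR adjusted p = 0.342).

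Atrial Hcn4 was at 5.4, 3.87 and 3.33 TPM with MBNL1, 3.87, 5.86 and 4.89 TPM with MBNL2 and 3.85, 4.3 and 3.5 TPM with both. The log2 fold changes against +dox were -0.60, -0.34 and -0.76 and none was called. Tbx3, Tbx18, Hcn2 and Shox2 overlapped with +dox in all 3 cohorts in atria, with Tbx3 between 1.47 and 2.19 TPM and Tbx18 between 2.07 and 3.51 TPM.

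In ventricle 0 of 9 genes were called with MBNL1, 1 with MBNL2 and 0 with both, against 2.66%, 1.52% and 2.65% of all genes tested. The counts at an unadjusted p under 0.05 were 3 (Tbx18, Vsnl1 and Cacna1d) with MBNL1 and 1 (Shox2) with both, and DESeq2 called 0 and 1 (Shox2). Of all 19231 genes tested, 4733 with MBNL1 and 4254 with both had such a p. The edgeR call with MBNL2 was Shox2, with 105, 31 and 49 counts against 19, 23 and 22 in +dox (log2 fold change 1.73, SE 0.509, edgeR adjusted p = 0.0357). Without MBNL2 replicate 1 the log2 fold change was 1.16 with an adjusted p of 0.252, and the call was lost in 11 of 17 alternative settings. Cacna1d was lower in every MBNL1 library, at 0.91, 0.82 and 0.88 TPM, with a log2 fold change of -0.51 (SE 0.139, edgeR adjusted p = 0.0194) that stayed under the 1.5-fold limit. It was at 1.15, 1 and 1.23 TPM with MBNL2 and 0.82, 1.07 and 1.04 TPM with both, overlapping with +dox.

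Ventricular Tbx18 was at 2.72, 2.9 and 3.12 TPM with MBNL1, above every +dox library (log2 fold change 0.42, edgeR adjusted p = 0.0572). Ventricular Cacna1g spread from 10.29 to 22.12 TPM over the AAV libraries and overlapped with +dox in each cohort, and Hcn4 spread from 1.95 to 9.49 TPM.

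Set against +/–dox mice, in which the CUGexp RNA had been turned off, Cacna1d stood apart in the AAV cohorts. In atria 1 of 9 genes, Cacna1d, was called in each of the MBNL1, MBNL2 and MBNL1+MBNL2 cohorts, against 1.21%, 3.24% and 1.71% of all genes tested. It was higher than in +/–dox mice in every library, with log2 fold changes of 0.70, 0.94 and 0.71 (SE 0.132 in each, edgeR adjusted p = 0.00141, 1.43e-05 and 0.000856). In ventricle 0, 1 and 1 of 9 were called, against 0.868%, 1.57% and 0.53% of all genes tested, and both calls were again Cacna1d. With MBNL1 the unadjusted p was under 0.05 for 2 of 9 (Cacna1d and Cacna1g) and DESeq2 called 0. Such a p was found for 3254 of all 19231 genes tested. The ventricular Cacna1d log2 fold changes were 0.74 with MBNL2 (SE 0.142, edgeR adjusted p = 0.00169), 0.64 with both (SE 0.143, edgeR adjusted p = 0.014) and 0.42 with MBNL1 (adjusted p = 0.123). The call with both was lost in 9 of 17 alternative settings.

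Hcn4 in atria was higher than in +/–dox mice in all AAV libraries, by log2 fold changes of 1.33, 1.59 and 1.18 with edgeR adjusted p of 0.182, 0.0584 and 0.216. Cacna1g was higher than in +/–dox mice in every MBNL2 library in both chambers, by 0.77 in atria (adjusted p = 0.0903) and 0.92 in ventricle (adjusted p = 0.0615). With the replicate number as a block the ventricular value was 0.93 with an adjusted p of 0.0474, which is a call.

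The third question was how the genes divide between the chambers. In both –dox and +dox mice 5 of the 9 genes were called, Vsnl1, Shox2 and Cacna1d higher in atria and Hcn2 and Tbx3 higher in ventricle, where 24.9% and 25% of all genes tested were called. Vsnl1 was 57.7-fold higher in atria of –dox mice (log2 fold change 5.85, SE 0.535, edgeR adjusted p = 6.21e-10) and 86.7-fold higher in +dox mice (6.44, SE 0.477, adjusted p = 1.04e-11). Shox2 was 7.41-fold higher in –dox atria (2.89, SE 0.473) and 14.5-fold in +dox atria (3.86, SE 0.508). Cacna1d was 5.69- and 5.78-fold higher in atria (2.51, SE 0.146, and 2.53, SE 0.14). No library of one chamber reached those of the other for these 3 genes.

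Hcn2 was lower in atria by 2.93-fold in –dox (log2 fold change -1.55, SE 0.144, edgeR adjusted p = 2.25e-10) and 2.27-fold in +dox mice (-1.18, SE 0.143, adjusted p = 4.18e-08). Tbx3 was lower by 1.98-fold in –dox (-0.98, SE 0.173) and 2.51-fold in +dox mice (-1.33, SE 0.175). The scale matters for this comparison: from CPM to TPM the median of 12847 (–dox) and 12857 (+dox) expressed genes shifted toward atria by 0.538 and 0.534 on the log2 scale. The cause of this shift was not tested. On log2(TPM + 1), tested with limma, the difference in Hcn2 was -0.93 (–dox) and -0.57 (+dox) and that in Tbx3 -0.33 and -0.52, and of these 4 only Hcn2 in –dox mice was still called.

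For Hcn4, Tbx18 and Cacna1g the direction between the chambers depended on the scale and no difference was called on counts. The log2 fold changes, atria over ventricle, were -0.47 (–dox) and -0.27 (+dox) for Hcn4, -0.06 and -0.04 for Tbx18 and -0.55 and -0.37 for Cacna1g on counts. On log2(TPM + 1) they were -0.06 and 0.38, 0.39 and 0.36, and 0.02 and 0.24. Isl1 was higher in atria by 3.40 (adjusted p = 0.0504) and 2.02 (adjusted p = 0.172) on the log2 scale, from the few counts given above.

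**Figure D4:**
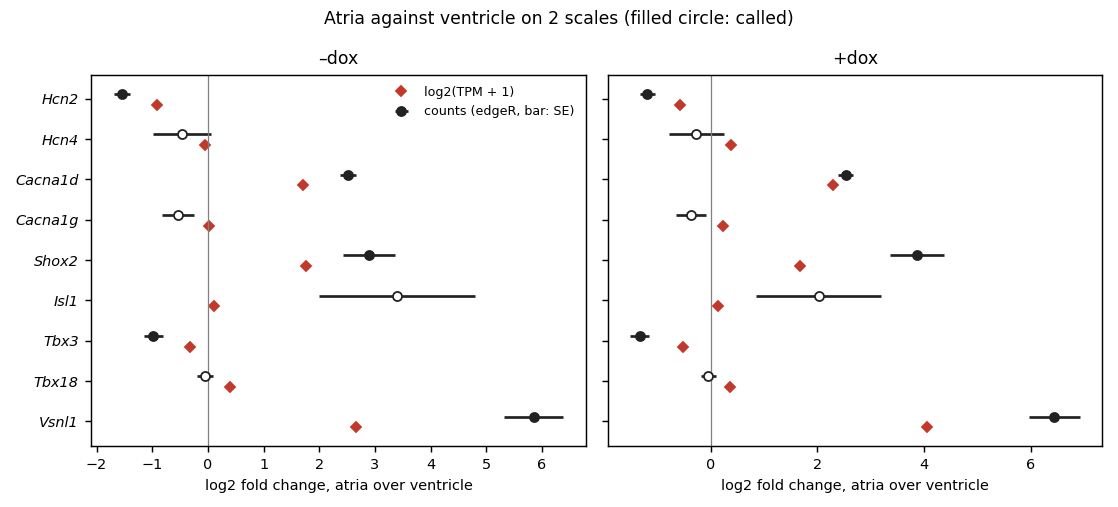
Log2 fold change of atria over ventricle (x axis) of the 9 genes in –dox and +dox mice, from counts with SE bars (filled where called) and from log2(TPM + 1). Vsnl1, Shox2 and Cacna1d lie to the right on both scales, while Hcn4, Tbx18 and Cacna1g lie near 0.

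Whether the cohort changes differed between the chambers was tested as an interaction. None of the 9 genes was called for any of the 5 cohorts, in the order –dox, +/–dox, MBNL1, MBNL2 and MBNL1+MBNL2, where 0.764%, 0.489%, 0.0312%, 0.0364% and 0.0728% of all genes tested were called. At an unadjusted p under 0.05 there were 0, 0, 1 (Tbx18), 1 (Shox2) and 2 (Shox2 and Vsnl1), and DESeq2 called 0 in each. Of all 19231 genes tested, 2120, 2438, 1568, 2114 and 1246 had such a p. The lowest adjusted p of the 9 genes was 0.248, for Shox2 in the MBNL2 cohort (log2 difference of the changes, atria minus ventricle, -1.98, SE 0.662). The atrial calls of Tbx3 and Vsnl1, which were not called in ventricle, are not shown to differ between the chambers.

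Within a cohort the 9 genes were not equally steady. In atria the standard deviation between libraries of a cohort, on log2 CPM, was 0.939 for Isl1, 0.676 for Hcn4 and 0.564 for Shox2, against 0.32 for Cacna1g, 0.219 for Tbx18, 0.208 for Vsnl1, 0.191 for Hcn2, 0.157 for Tbx3 and 0.14 for Cacna1d. In ventricle, where Vsnl1 (1.091) and Isl1 (0.813) had few counts, Hcn4 (0.717) and Shox2 (0.596) were again the most variable of the others.

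Among atrial libraries Shox2 and Isl1 rose and fell together. Over 18 libraries with cohort means removed, Pearson's r was 0.867 (permutation p = 0.00375, adjusted over 36 pairs 0.045) and Spearman's rho 0.847 (adjusted p = 0.0534), and r was 0.801 without the 2 libraries farthest from the median of Shox2. Within the 10 libraries of the first name series r was 0.94. That series holds 2 libraries of each of 5 cohorts, so its r rests on only 5 differences between libraries. The second series could not give its own value, since only the 3 MBNL1+MBNL2 libraries in it share a cohort. Shox2 stood at 4.45, 3.38 and 2.31 TPM and Isl1 at 15, 14 and 2 counts in the –dox libraries, and at 5, 1.52 and 1.95 TPM and 9, 2 and 0 counts in the MBNL1+MBNL2 libraries. Hcn4 followed Shox2 less closely (r = 0.525, adjusted permutation p = 0.224), but –dox replicate 3 was the lowest of its cohort in Hcn4, Shox2 and Isl1.

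Over the same 18 libraries genes among the 5 whose deviations were most like those of Shox2, out of all genes tested, were Isl1 (r = 0.867), Gm45871 (0.867), Tenm4 (0.845) and Clcc1 (0.842). Over the 12 group means the genes most like Hcn4 were Jak3 (r = 0.972), Micall1 (0.956), Macroh2a1 (0.955), Kctd3 (0.949) and Pipox (0.945), which is a description of 12 points that share libraries within a group. Cacna1g came at rank 203 in that order, with r = 0.845.

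The calcium channels and Vsnl1 also moved together. With cohort means removed, Cacna1d and Cacna1g had r = 0.712 (permutation p = 0.00075, adjusted 0.027) and rho = 0.798 (adjusted p = 0.0108), with r = 0.708 without the 2 farthest libraries and 0.719 within the first name series. Vsnl1 and Cacna1d had r = 0.772 (permutation p = 0.00283, adjusted 0.045) and rho = 0.806 (adjusted p = 0.0457), with r = 0.733 without 2 libraries and 0.922 within the first series. The correlation of Shox2 with Cacna1d was 0.047, with Cacna1g 0.146 and with Vsnl1 0.305. Within the first name series these values were higher, at 0.52, 0.946 and 0.645. Shox2 was thus not set apart from these genes in that series, whose r rests on few differences between libraries. Of the 36 pairs, 3 passed the adjusted threshold, while 1 did with a prior count of 0.5 and 0 did on log2(TPM + 0.1).

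**Figure D5:**
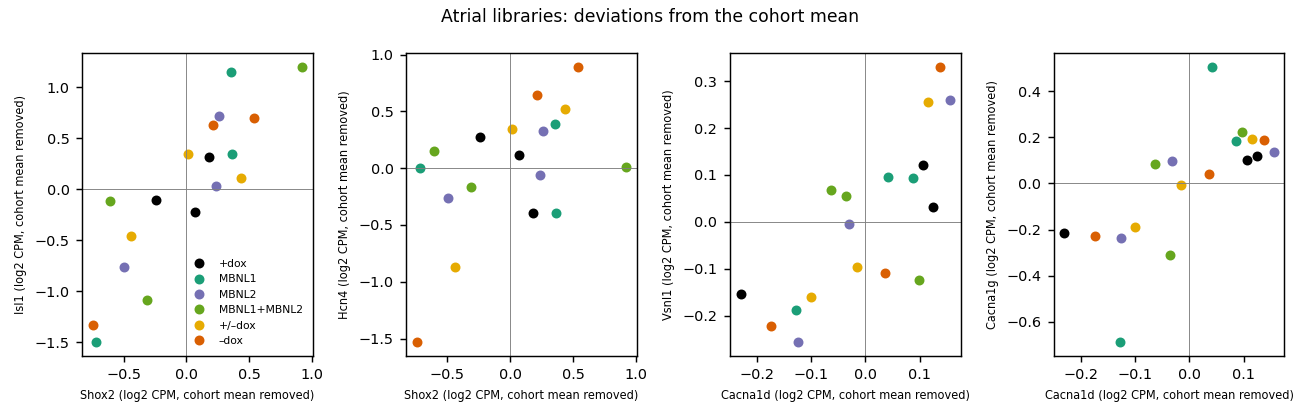
Deviations of log2 CPM from the cohort mean in the 18 atrial libraries, coloured by cohort, for pairs of genes named on the axes. Shox2 and Isl1 lie along a rising line (r = 0.867), and the –dox replicate with the lowest Hcn4 lies 1.53 below its cohort mean.

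A fit of the 18 atrial libraries alone gave the 7 genes other than Shox2 and Isl1 15 calls over the atrial comparisons of cohorts. With the levels of Shox2 and Isl1 as covariates in that fit there were 14, and with Shox2 alone 13. How far either level tracks the node tissue in a sample was not tested. Tbx18 in –dox atria fell under the 1.5-fold limit with the Shox2 covariate (log2 fold change 0.56). The calls of Cacna1d, Cacna1g and Vsnl1 in –dox atria and of Cacna1d in +/–dox atria held in 19 of 19 alternative settings.

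A list of 28 other genes of pacemaking and the node was followed beside the 9, of which 27 were tested and Kcne2 was not. In –dox against +dox atria 0 rose and 2 fell, where 5.23% of all genes tested were called, and in the other atrial comparisons of cohorts edgeR called none (1 to 11 of 27 had an unadjusted p under 0.05). Of all 19231 genes tested, 831 to 4842 had such a p in those other comparisons. Those that fell were Adcy1, a calcium-stimulated adenylyl cyclase of atrial and nodal cells, and Cacna1h, the T-type channel Cav3.2. Adcy1 was at 46.85, 50.75 and 48.69 TPM in +dox and 25.56, 28.79 and 25.14 TPM in –dox atria (log2 fold change -0.84, SE 0.281, edgeR adjusted p = 0.0406). Cacna1h was at 10.18, 12.06 and 8.15 TPM in +dox and 5.15, 3.89 and 2.84 TPM in –dox atria (log2 fold change -1.32, SE 0.374, edgeR adjusted p = 0.0166). The libraries of neither gene overlapped. The median log2 fold change of the list was 0.14, against 0.03 over all genes.

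In –dox ventricle 1 of the 27 rose and 2 fell against +dox, where 7.6% of all genes tested were called. Cacna1c, the main L-type channel of working heart muscle, was at 52.94, 51.53 and 51.05 TPM in +dox and 65.03, 67.16 and 76.69 TPM in –dox ventricles (log2 fold change 0.63, SE 0.073, edgeR adjusted p = 2.24e-07), a direction opposite to that of Cacna1d. Adcy1 fell from 1.24, 1.16 and 1.55 TPM to 0.2, 0.45 and 0.36 TPM (-1.91, SE 0.311, adjusted p = 7.92e-05). Rgs6, a regulator of the muscarinic brake on heart rate, fell from 18.44, 16.51 and 18.83 TPM to 10.11, 8.71 and 11.24 TPM (-0.77, SE 0.105, adjusted p = 2.54e-06).

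In +/–dox ventricle 3 of the 27 rose (Cacna1c, Igfbp5 and Tbx2) and 2 fell (Adcy1 and Ntm), against 6.6% of all genes tested. With MBNL1, Adcy1 was the 1 gene that fell (log2 fold change -1.42, SE 0.302, edgeR adjusted p = 0.00466), at 0.46, 0.69 and 0.35 TPM, below every +dox library. With both, Adcy1 (-1.04, adjusted p = 0.0296) and Rgs6 (-0.70, adjusted p = 5.54e-05) fell, and with MBNL2 1 gene, the T-box repressor Tbx2, rose (0.71, SE 0.22, adjusted p = 0.0436). Against +/–dox ventricle, Adcy1 (log2 fold change 1.41, adjusted p = 0.00691) and Cacna2d2, a calcium channel subunit (1.37, adjusted p = 0.0473), were higher with MBNL2, and edgeR called 0 in the other cohorts (2 to 4 of 27 at an unadjusted p under 0.05). In those other cohorts 1586 to 3254 of all 19231 genes tested had such a p. Between the chambers the list had 14 genes higher and 3 lower in atria of –dox mice and 15 and 4 in +dox mice, against 24.9% and 25% of all genes tested, and edgeR called 0 of 27 in each interaction, with 2 to 12 at an unadjusted p under 0.05. For the interactions 1246 to 2438 of all 19231 genes tested had such a p.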

How the data were processed

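Poly(A)-selected RNA was made into stranded libraries by the authors, sequenced as paired reads, aligned with STAR 2.7.10b to mm10 and quantified with RSEM 1.3.1 on GENCODE M25. The deposited expected counts are the authors' RSEM output, 1 row per symbol, not normalized, and were rounded to whole numbers here. The authors' TPM values, scaled by transcript length, give the levels. All 36 libraries (total counts 55.03 to 97.09 M) were fitted in edgeR 4.0.16 (R 4.3.3, limma 3.58.1) by the robust quasi-likelihood test, with TMM normalization, default filterByExpr (19231 genes kept) and 1 mean for each of 12 groups. SE values come from the F statistic. p-values were adjusted by Benjamini-Hochberg over all genes of 1 comparison, and the fold limit was 1.5. Correlations took log2 CPM (prior count 2), with 100000 permutations inside cohorts (Python 3.11.15, scipy 1.17.1). Alternatives were DESeq2 1.42.0 and its size factors, limma on log2(TPM + 1) and log2(TPM + 0.1), no filter, no fold limit, fits of fewer libraries, the replicate block, covariates and leaving out each library. The script was tested on simulated data. Positions came from GENCODE M21 on GRCm38 and promoters from RefSeq.

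The members and gene lists were chosen with earlier results of these data known. Named genes are the 9 members, called genes of the lists, and the 5 genes most like Shox2 (within atrial cohorts) and Hcn4 (over group means). A few such genes are not reported here. Same-numbered libraries of different cohorts were not fitted as pairs in the main fit, though 20 of 54 correlations of their deviations were over 0.1. In atria the correlations of replicates 3 outside the MBNL1+MBNL2 cohort were 0.199 to 0.29. For the chambers 11 of 18 correlations were over 0.1, and 6 of 6 in the –dox and +dox cohorts. Replicates differed beyond sampling noise in all 36 pairs. Splicing, the human MBNL cDNAs and the transgene were not analysed here.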

Additional observations from a re-analysis of the deposited data

How the results depend on the processing

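Over the comparisons of cohorts the 9 genes gave 11 calls in atria and 7 in ventricle, with 10 between the chambers and 0 interactions. Of these 28 called results 14 held under every alternative, none reversed, and 12 results that were not called passed under at least 1 alternative. Limma on log2(TPM + 1), which understates the change of low genes, gave 2 calls in ventricle with and without the filter, and 1 interaction, Vsnl1 in –dox mice (-1.40, adjusted p = 4.84e-05). Leaving out 1 library at a time gave 8 to 11 calls in atria, 6 to 8 in ventricle, 10 to 11 between the chambers and 0 interactions. DESeq2 gave 13 in atria and 10 in ventricle. Of the 36 correlations within atria, 3 passed with a prior count of 2, 1 with 0.5 and 0 on log2(TPM + 0.1). The replicate block kept the counts at 11 in atria, 10 between the chambers and 0 interactions, and added 1 call in ventricle, 8 in all. With cohort and replicate number as a block across the chambers, an alternative chosen after seeing the data like the fit without ventricular MBNL1 replicate 1 and the Shox2 covariate, the counts were 10 and 0. For Isl1, with at most 15 counts, and for ventricular Shox2 and Vsnl1, depth limits what can be detected.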

Other observations

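Smoc2, a matricellular gene of the list of pacemaking and node genes, was at 30.49, 32.45, 27.72, 37.75 and 35.95 TPM in atrial replicate 3 of the +dox, MBNL1, MBNL2, –dox and +/–dox cohorts, and at 11.21 to 16.77 TPM in their replicates 1 and 2. The 3 MBNL1+MBNL2 atria, whose library names belong to the same series as those replicates 3, were at 16.88, 13.11 and 16.22 TPM. In ventricle replicate 3 was also the highest of its cohort in each of these 5 cohorts, at 46.69 to 68 TPM. The replicates 3 of these 5 cohorts are also the libraries of female mice, with Xist at 13.57 to 41.24 TPM. Xist was at 0.08 to 0.15 TPM in the MBNL1+MBNL2 libraries. Whether Smoc2 differs by sex was not tested. Smoc2 is singled out here after its values were seen.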
